A study of Citrus sinensis and Citrus junos and Citrus trifoliata with 12 samples.

Results

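These 110 genes were higher in leaves of an orange scion grown on one rootstock than on another, while their mean level in the scion stem was about the same on both. They were chosen from 26559 genes listed in at least 1 of 12 RNA sequencing libraries. The choice used FPKM, fragments scaled by gene length and library size, with a gene missing from a library taken as 0. A member had at least 2 FPKM in both leaf libraries on Cj, and its lowest leaf value on Cj was at least 1.5 times its highest leaf value on Pt. Its mean stem level was at least 1 FPKM, the ratio of mean Cj stem to mean Pt stem lay between 0.8 and its inverse, and its leaf mean was at least 1/3 of its stem mean. The limit of 300 genes was not reached. The leaf and stem values chose the members, so they are given as a description, and counts of calls from them are no evidence. The root libraries were not used in the choice and carry the test.

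Every tree carried the navel orange 'Lane Late' (Citrus sinensis) as its scion. The rootstock was Ziyang xiangcheng (Citrus junos, Cj) or trifoliate orange (Poncirus trifoliata, Pt). The 6 groups were Cj roots, Pt roots, scion stem on Cj, scion stem on Pt, scion leaf on Cj and scion leaf on Pt, with 2 libraries each. All were labelled 140 DAF and came from trees planted in one orchard in 2009. The series title speaks of saline-alkali stress, and the labels define no stressed and unstressed groups. The labels call the libraries of a group biological replicates without saying that they came from separate trees. A p-value here reflects only how far libraries of the same group lay apart. In the main fit that spread was pooled over the 6 groups and shared in part across genes. Totals ran from 9356633 to 11383332 estimated counts per library. Root libraries of both rootstock species were counted on the same gene IDs as the scion, and reads of another species may match these IDs less well.

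A grafted tree joins the root system of one plant to the shoot of another. Water, minerals and hormones such as cytokinins move from the roots into the shoot through the xylem, and sugars, peptides and some RNA move through the phloem. Leaves are the main site of photosynthesis and transpiration, and stems carry the vascular and supporting tissue. A bulk library mixes all cells of an organ, so more cells of a type and more RNA per cell cannot be told apart.

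The deposited tables pair IDs with transcripts and not with gene names. None of the 110 IDs matched the RefSeq gene table of the assembly DVS_A1.0, and 0 of all 26559 did. Genes are therefore given by ID, none is given a function, and the labelled organs could not be checked against marker genes.

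Most members differed modestly in leaf. The mean leaf level on Cj divided by that on Pt had a median of 2.00 over the 110 genes and ran from 1.55 to 27.0. It was at least 2 in 54 genes, at least 3 in 12 and at least 4 in 6. The mean level in Cj leaf was at least 100 FPKM in 11 genes, between 10 and 100 FPKM in 64, and under 10 FPKM in 35. Over the members the median leaf level was 19.0 FPKM on Cj and 8.52 FPKM on Pt, and the median stem level was 8.53 FPKM on Cj and 8.52 FPKM on Pt.

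The gene with the widest leaf gap was Cs2g31420. Its leaf levels were 16.3 and 19.1 FPKM on Cj and 0.290 and 1.02 FPKM on Pt, a 27.0-fold difference of the means. In stem it stood at 1.77 and 1.26 FPKM on Cj and at 2.21 and 0.760 FPKM on Pt, so the stem groups overlapped. Cj leaf was thus the one group in which this gene exceeded 3 FPKM. Cs3g01590 came next by its lowest Cj leaf value over its highest Pt leaf value, which was 3.99, while orange1.1t04182, orange1.1t04910 and Cs5g27590 had larger folds of the means. It stood at 27.1 and 21.4 FPKM in Cj leaf and at 4.77 and 5.36 FPKM in Pt leaf. Its stem levels were 26.2 and 26.9 FPKM on Cj and 27.8 and 20.4 FPKM on Pt. Here the Cj leaf libraries lay at the level of stem and the Pt leaf libraries lay below every stem library.

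The most abundant members in Cj leaf were orange1.1t00326 and Cs3g05800. Orange1.1t00326 reached 677 and 701 FPKM in Cj leaf against 418 and 441 FPKM in Pt leaf. Its stem values of 349 and 373 FPKM on Cj enclosed those of 358 and 349 FPKM on Pt. Cs3g05800 reached 398 and 341 FPKM in Cj leaf against 155 and 131 FPKM in Pt leaf, a 2.58-fold difference of the means. Its stem values of 121 and 89.1 FPKM on Cj overlapped those of 85.5 and 95.2 FPKM on Pt.

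At the edge of the choice, Cs2g09780 had 52.8 and 55.9 FPKM in Cj leaf and 33.2 and 35.1 FPKM in Pt leaf, so its lowest Cj value was 1.505 times its highest Pt value. Cs7g31920 was the nearest gene outside. It had 44.2 and 48.6 FPKM in Cj leaf and 28.4 and 29.5 FPKM in Pt leaf, a ratio of 1.499. These neighbours across the limit had nearly the same leaf gap, so the limit marks no break in the data.

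**Figure D1:**
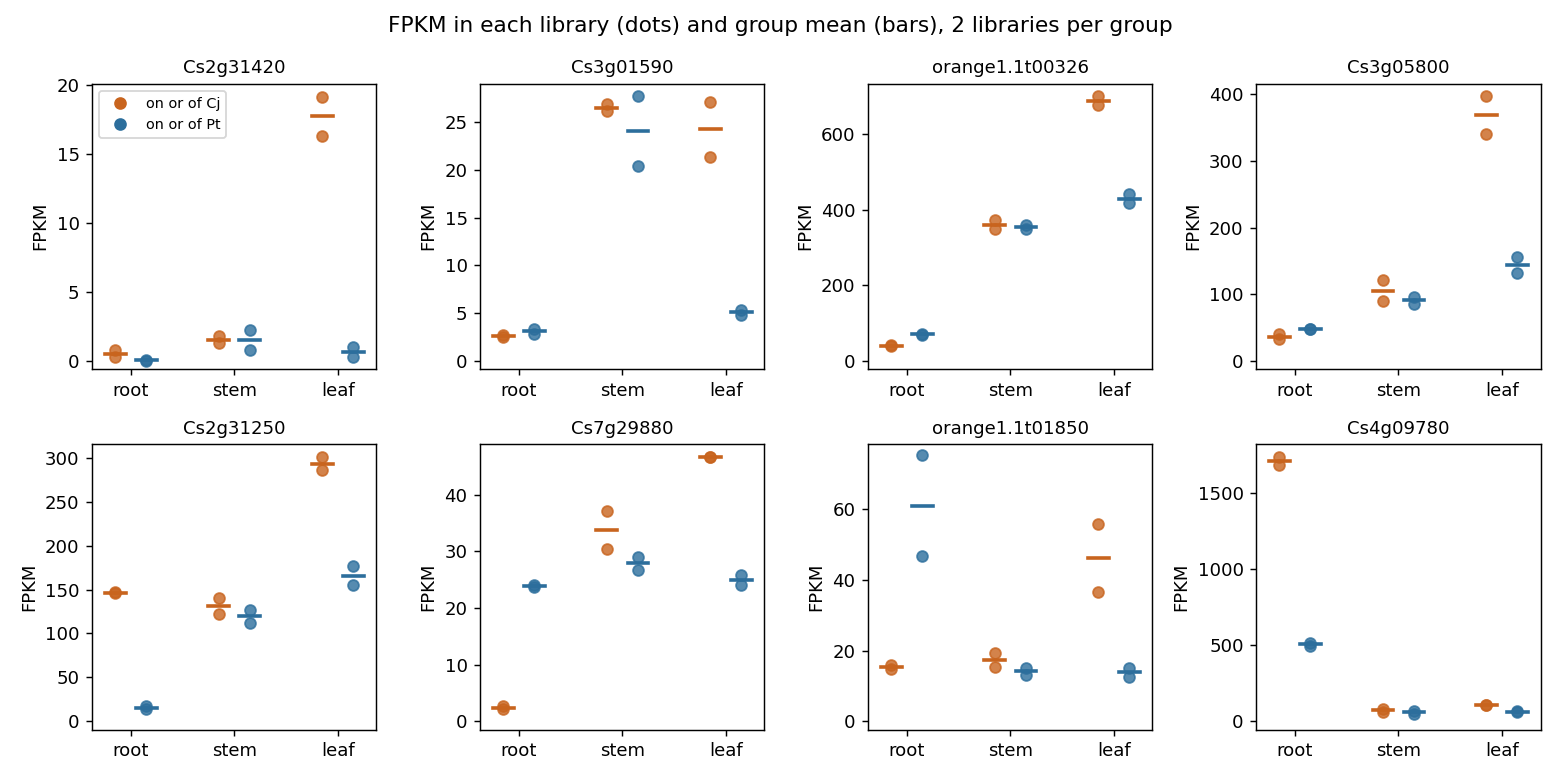
FPKM of 8 members in roots, stem and leaf (linear axes, one panel per gene); dots are libraries, bars are means of 2 libraries, orange is Cj and blue is Pt. In all 8 panels the Cj leaf libraries lie above the Pt leaf libraries, as the choice required, while the roots differ in either direction, from 147 against 14.0 FPKM in Cs2g31250 to 2.11 against 24.0 FPKM in Cs7g29880 (replicate 1 of each).

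The leaf difference took more than one form when leaf was set against stem on the same rootstock. Leaf was called near stem when the ratio of their means lay within 1.5-fold. In 47 members leaf was above stem on Cj and near stem on Pt. In 20 members leaf was near stem on Cj and below stem on Pt, as in Cs3g01590. In 18 leaf was above stem on both rootstocks, in 17 near stem on both and in 5 below stem on both. In the other 3, Cs2g31420 among them, leaf was above stem on Cj and below stem on Pt. Over all members the median ratio of leaf to stem was 1.83 on Cj and 0.898 on Pt. Leaf exceeded stem in 95 of 110 members on Cj and in 46 on Pt. The choice fixes a higher ratio on Cj than on Pt, so these counts are a description. The ratios use FPKM without TMM scaling, whose factors were 1.14 to 1.19 in stem and 1.05 to 1.08 in leaf. That scaling would raise leaf against stem, and the forms were not counted with it or for other genes.

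The extremes of that range were far apart, and the choice cut the lower end. Cs5g30850 had its highest levels in leaf on both rootstocks, with 14.1 and 15.5 FPKM on Cj and 7.93 and 9.04 FPKM on Pt. Its stem levels were 1.77 and 2.32 FPKM on Cj and 1.17 and 2.25 FPKM on Pt, so leaf was 7.23 times stem on Cj and 4.96 times on Pt. Orange1.1t04182 was at the other end, where its leaf mean over both rootstocks was 0.340 times its stem mean, just inside the limit of 1/3. It stood at 28.8 and 13.0 FPKM in Cj leaf and 3.77 and 1.85 FPKM in Pt leaf. Its stem levels were 45.5 and 27.2 FPKM on Cj and 44.6 and 22.3 FPKM on Pt, so leaf was 0.576 times stem on Cj and 0.0841 times on Pt. In this gene replicate 1 was above replicate 2 in all 4 scion groups. Cs3g05470 was also lower in leaf than in stem on both rootstocks. Its leaf levels were 3.76 and 3.69 FPKM on Cj and 2.38 and 2.22 FPKM on Pt, and its 4 stem values lay between 8.17 and 9.15 FPKM.

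**Figure D2:**
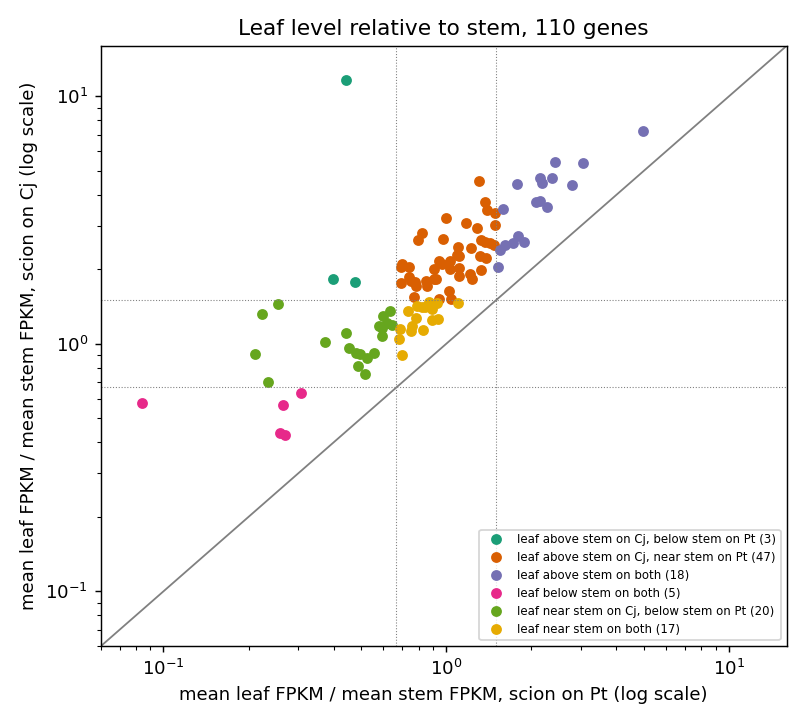
Mean leaf FPKM divided by mean stem FPKM for each of the 110 genes, scion on Pt (x) against scion on Cj (y), log axes; the diagonal marks equal ratios, dotted lines mark 1.5-fold in each direction, and colours mark the 6 forms. All points lie above the diagonal, which the choice of genes fixes; the largest form has 47 genes with leaf above stem on Cj and near stem on Pt.

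The stem values were similar on average but not uniform. The stem groups overlapped in 78 members. Cj stem lay above Pt stem in both libraries in 25 members and below it in 7, against 21.9% and 24.5% of all genes tested. The choice limited the stem ratio of the members and not that of all genes, so these shares are not like for like. The stem ratio was above 1 in 76 of 110 members, and its median was 1.07. No such share was taken over other genes under the same stem limit, so nothing is read from it. Replicates over 1.5-fold apart were more frequent in these genes than in the 11200 other genes that met every limit but the leaf fold, in each of the 6 groups. The shares were 26.4% against 10.9% in Pt roots, 19.1% against 8.21% in Cj roots, 10.0% against 4.09% in Cj leaf and 9.09% against 4.88% in Pt leaf. The replicates of Pt stem differed by over 1.5-fold in 26 members (23.6%) against 4.29% of those genes. Those of Cj stem did so in 15 members (13.6%) against 3.93%. The members also had lower levels, with a median root FPKM of 3.08 against 11.2 and a median leaf FPKM of 13.5 against 17.3. Shares at equal level were not taken, so these shares are not like for like. In 20 of the 26 members Pt stem replicate 1 was the higher one. The near-equality in stem therefore rests for these genes on the mean of unequal libraries, and without Pt stem replicate 1 only 63 of the 110 genes met all limits. Without Pt stem replicate 2 or Cj stem replicate 1 the number was 72 in each case, and without Cj stem replicate 2 it was 85.

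In the fit across all genes, 82 of the 110 members were called higher on Cj in leaf (edgeR's quasi-likelihood test, adjusted p under 0.05), where 4.43% of all 21261 genes tested were called higher. The leaf effect minus the stem effect was called higher in 10 members, where 0.141% of all genes were. The choice used both contrasts, so these counts are a description and nothing is read from them. They also depended on single libraries: the leaf count was 47 without Pt leaf replicate 2, and the count for leaf minus stem was 1 without Pt stem replicate 1 and 3 without either Pt leaf replicate.

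The roots asked whether the same genes also differ between the rootstock plants themselves, where tissue is the same and species differ. All 110 members were tested. In Cj roots 42 were called higher (38.2%) and 16 lower (14.5%), and 52 did not pass (edgeR's quasi-likelihood test over all 12 libraries, adjusted p under 0.05 by Benjamini-Hochberg over 21261 genes). Among all genes tested 27.4% were higher and 24.3% lower in Cj roots, and 51.7% were called in either direction. The share of members called in either direction, 52.7%, was thus near the background, while the split between higher and lower was less even than over all genes. The median root log2 fold change was 0.49 over the members, 0.24 without Cj root replicate 2, and 0.02 over all genes tested. It was 0.79 over the 93 members with a count in both Cj and Pt roots, and 0.04 over all tested genes with one. By FPKM, both Cj root libraries lay above both Pt root libraries in 51 members and below them in 28, against 37.3% and 39.3% of all genes tested, and the groups overlapped in 31. Of the called members, 30 were higher and 9 lower by at least 1 on the log2 scale, and 12 and 2 by at least 2. Shares over all genes at these limits were not taken, so these counts by size are a description.

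Other sets chosen by a scion difference had similar shares higher in Cj roots, while the shares lower there ranged from 13.1% to 24.1%, and no difference between sets was tested. The mirror set, chosen by the same rule with the rootstocks exchanged, held 145 genes that were lower on Cj in leaf alone. In Cj roots 54 of them (37.2%) were higher and 35 (24.1%) lower, and their median log2 fold change there was 0.36. Of 99 genes higher on Cj in both leaf and stem, Cj roots had 37 (37.4%) higher and 13 (13.1%) lower, and the median was 0.57. Of the 11195 tested genes that met every limit but the leaf fold, 25.4% were higher and 28.5% lower, with a median of -0.02. The share higher in Cj roots was thus 38.2% where leaf was higher on Cj and 37.2% where leaf was lower on Cj, and the share lower in Cj roots was 14.5% and 24.1%.

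**Figure D3:**
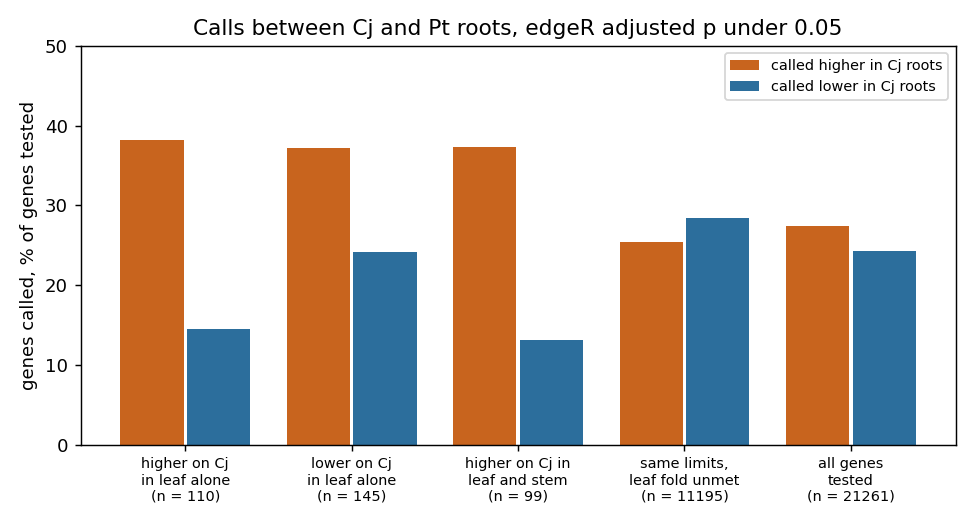
Share of genes called higher (orange) or lower (blue) in Cj roots than in Pt roots, in % of the genes tested in each set; the first bars are the 110 members, and the numbers of genes stand under the bars. The share called higher is 38.2%, 37.2% and 37.4% in the 3 sets chosen by a scion difference and 27.4% over all genes tested.

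Among members well expressed in roots, the widest difference in favour of Cj was that of Cs2g31250. It stood at 147 and 146 FPKM in Cj roots and at 14.0 and 17.5 FPKM in Pt roots, with no overlap. The log2 fold change was 3.30 ± 0.15 (SE; edgeR's quasi-likelihood test, adjusted p = 1.8e-08). In leaf it stood at 301 and 286 FPKM on Cj and 176 and 155 FPKM on Pt, and its 4 stem values lay between 112 and 141 FPKM. Thus Cj roots lay slightly above the scion stem, and Pt roots lay far below it. Orange1.1t00571 stood at 11.0 and 11.2 FPKM in Cj roots and 2.10 and 2.22 FPKM in Pt roots, a log2 fold change of 2.44 ± 0.22 (SE; same test, adjusted p = 2.1e-06). It was mainly a scion gene, with 249 and 312 FPKM in Cj leaf and 141 and 142 FPKM in Pt leaf.

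In the other direction stood Cs7g29880. It had 2.11 and 2.74 FPKM in Cj roots and 24.0 and 23.7 FPKM in Pt roots, a log2 fold change of -3.23 ± 0.17 (SE; edgeR's quasi-likelihood test, adjusted p = 4.0e-08). In leaf its order was the reverse, with 46.6 and 46.7 FPKM on Cj and 24.1 and 25.8 FPKM on Pt. By FPKM without TMM scaling, Pt roots were therefore at the level of Pt leaf for this gene. In CPM after TMM scaling the means were 36.1 in Pt roots and 29.2 in Pt leaf. Orange1.1t01850 stood at 14.8 and 15.97 FPKM in Cj roots and at 46.7 and 75.1 FPKM in Pt roots, a log2 fold change of -1.90 ± 0.23 (SE; same test, adjusted p = 2.2e-05). In leaf it stood at 36.5 and 55.7 FPKM on Cj and at 12.6 and 15.03 FPKM on Pt. Its replicates differed more than those of most members, and the groups still did not overlap in roots or leaf.

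Some members were nearly equal in both roots. Orange1.1t01787 stood at 13.9 and 15.4 FPKM in Cj roots and at 14.6 and 15.97 FPKM in Pt roots, with a log2 fold change of 0.02 ± 0.13 (SE; edgeR's quasi-likelihood test, adjusted p = 0.938). Cs9g06860 stood at 7.27 and 6.52 FPKM in Cj roots and at 6.78 and 6.68 FPKM in Pt roots, with a log2 fold change of 0.11 ± 0.14 (SE; same test, adjusted p = 0.553). In leaf these genes were 1.84-fold and 1.93-fold higher on Cj. Cs2g31420, the gene with the widest leaf gap, stood at 0.250 and 0.750 FPKM in Cj roots and at 0 and 0.0700 FPKM in Pt roots. It was called higher in Cj roots (edgeR's quasi-likelihood test, adjusted p = 0.0406) on very few counts, and no fold is given. Without Cj root replicate 2 the adjusted p was 0.242. It was 0.178 without Pt root replicate 1 and 0.0778 without Pt root replicate 2 (edgeR's quasi-likelihood test).

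**Figure D4:**
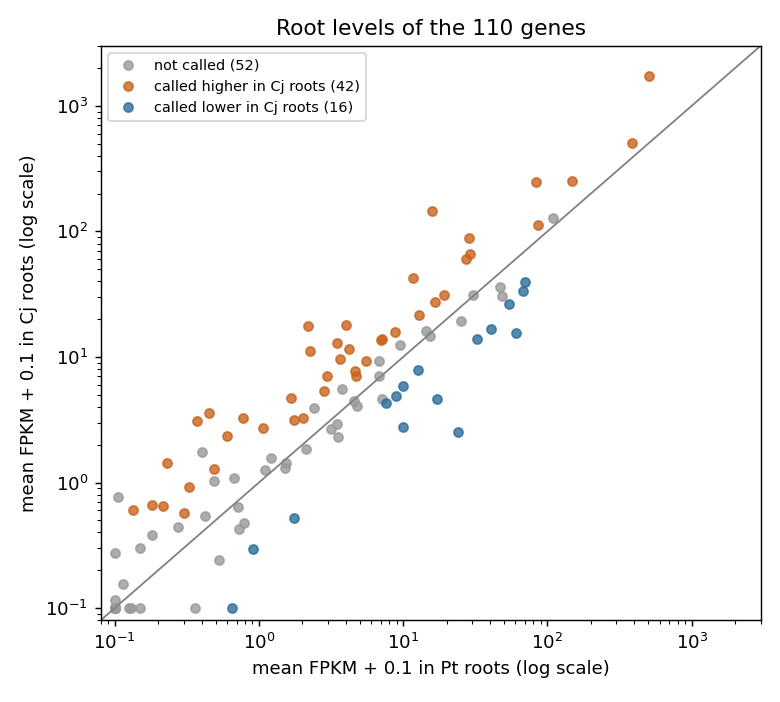
Mean FPKM + 0.1 in Pt roots (x) against Cj roots (y) for the 110 genes, 2 libraries per group, log axes; the diagonal marks equal levels and colours mark the call of edgeR's test. The 42 genes called higher and the 16 called lower in Cj roots spread over the whole range of levels above 0.1 FPKM, and Cs4g09780 is the point at the upper right.

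Root levels ranged from none to far above the scion. Mean root FPKM over the 4 libraries was under 0.1 in 16 members, from 0.1 to 1 in 22, from 1 to 10 in 38 and at least 10 in 34. None of the 16 lowest was called in roots, and 10 of them had no count in any root library and so could not be called. The calls were 7 higher and 2 lower among the 22, 18 and 5 among the 38, and 17 and 9 among the 34. Shares over all genes at the same root level were not taken, so these calls by level are a description. Mean root FPKM was under 1 in 38 members (34.5%), in 10.1% of the 11200 genes that met every limit but the leaf fold, in 14.5% of the mirror set and in 43.4% of the genes higher on Cj in both leaf and stem. By FPKM without TMM scaling, the root mean was under 1/4 of the mean of the 8 scion libraries in 57 members. It was within 4-fold of that mean in 48 and over 4 times it in 5.

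The scion genes most abundant in leaf among those nearly silent in roots were Cs7g26690 and Cs3g02330. Cs7g26690 had 81.8 and 78.2 FPKM in Cj leaf and 27.0 and 30.1 FPKM in Pt leaf. It was not listed in 3 root libraries and stood at 0.0600 FPKM in Pt root replicate 2. Its stem values were 28.1 and 26.2 FPKM on Cj and 21.2 and 23.1 FPKM on Pt, and its lowest Cj leaf value was 2.59 times its highest Pt leaf value. Cs3g02330 had 49.4 and 55.0 FPKM in Cj leaf, 31.1 and 28.9 FPKM in Pt leaf and no count in any root library.

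The 5 members that were over 4 times higher in roots than in the scion were named after their values were seen. Cs4g09780 was the most abundant of all members in any organ. It stood at 1688 and 1739 FPKM in Cj roots and at 514 and 498 FPKM in Pt roots, a log2 fold change of 1.80 ± 0.14 (SE; edgeR's quasi-likelihood test, adjusted p = 8.0e-07). In leaf it stood at 104 and 106 FPKM on Cj and at 65.2 and 64.5 FPKM on Pt. Cs6g15740 and Cs6g15760 also rose in Cj roots, with 247 and 250 against 85.9 and 80.2 FPKM in the first and 59.1 and 60.8 against 24.7 and 29.4 FPKM in the second. Their log2 fold changes were 1.66 ± 0.16 and 1.23 ± 0.22 (SE; same edgeR test, adjusted p = 3.1e-06 and 4.9e-04). The other two were lower or not called. Cs3g15630 fell by 1.23 on the log2 scale in Cj roots (adjusted p = 3.6e-04, edgeR's quasi-likelihood test), and Cs5g24520 had a log2 fold change of -0.56 (adjusted p = 0.213).

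Some members were neighbours by ID. There were 3 pairs of consecutive IDs, which hold 6 of the 110 genes. With the next ID taken among the genes tested, 8 members had a neighbouring member. No like count was taken for other sets of genes. The pair Cs7g29900 and Cs7g29910 stood close to another member, Cs7g29880, with 1 gene between. All of these were higher in Cj leaf and lower in Cj roots. Cs7g29900 stood at 31.5 and 32.1 FPKM in Cj leaf and 19.4 and 16.6 FPKM in Pt leaf, and at 13.2 and 14.2 FPKM in Cj roots and 31.5 and 33.0 FPKM in Pt roots. Its root log2 fold change was -1.16 ± 0.15 (SE; edgeR's quasi-likelihood test, adjusted p = 4.4e-05). Cs7g29910 stood at 57.1 and 61.2 FPKM in Cj leaf and 27.0 and 26.8 FPKM in Pt leaf, and at 4.32 and 4.71 FPKM in Cj roots and 14.8 and 19.2 FPKM in Pt roots, a log2 fold change of -1.82 ± 0.16 (SE; same test, adjusted p = 1.8e-06). The gene between, Cs7g29890, had 2.22 and 3.75 FPKM in Cj leaf and 1.62 and 5.08 FPKM in Pt leaf, and its root log2 fold change was -0.36 ± 0.36 (SE; same test, adjusted p = 0.425). On the flanks, Cs7g29870 was lower in Cj roots (log2 fold change -0.64; edgeR's quasi-likelihood test, adjusted p = 0.00828) and stood at 3.74 and 4.96 FPKM in Cj leaf and 4.09 and 3.93 FPKM in Pt leaf. Cs7g29920 stood at 28.8 and 25.9 FPKM in Cj leaf and 12.5 and 18.8 FPKM in Pt leaf, and its root log2 fold change was 0.85 (same edgeR test, adjusted p = 0.0630). The estimated counts of Cs7g29880, Cs7g29900 and Cs7g29910 were not whole in leaf, so part of their reads may have been divided, and whether they share reads with each other was not tested.

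The other pairs were Cs2g30800 with Cs2g30810 and orange1.1t00326 with orange1.1t00327. Cs2g30800 had 6.46 and 5.52 FPKM in Cj leaf and 2.10 and 2.82 FPKM in Pt leaf. Cs2g30810 had 19.6 and 19.4 FPKM in Cj leaf and 8.75 and 10.4 FPKM in Pt leaf, and neither gene exceeded 0.0800 FPKM in any root library. In both, Pt stem replicate 1 was well above replicate 2, at 5.23 against 2.57 FPKM and 19.6 against 11.6 FPKM. Orange1.1t00327 had 113 and 133 FPKM in Cj leaf and 58.6 and 67.1 FPKM in Pt leaf, and 2.42 and 1.96 FPKM in Cj roots against 1.85 and 4.99 FPKM in Pt roots. Its root groups overlapped (log2 fold change -0.56 with an SE of 0.44; edgeR's quasi-likelihood test, adjusted p = 0.312). The direction rested on single Pt libraries: the log2 fold change of orange1.1t00327 was -1.08 without Pt root replicate 1 and 0.28 without Pt root replicate 2 (same edgeR test, adjusted p = 0.0411 and 0.717). Its neighbour orange1.1t00326 was lower in Cj roots, with 38.8 and 40.4 FPKM against 70.7 and 68.9 FPKM in Pt roots and a log2 fold change of -0.74 ± 0.11 (SE; same test, adjusted p = 1.2e-04).

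A feature that the choice did not use was the division of reads. An estimated count that is not whole (beyond 0.005) can arise when reads that fit several genes are divided between them. In leaf 57 of the 110 members (51.8%) had such a count in at least 1 library. The share was 27.2% over all genes tested, 22.6% in the genes that met every limit but the leaf fold, 29.0% in the mirror set and 23.2% in the genes higher on Cj in both leaf and stem. Mean root FPKM was under 1 in 26 of these 57 and in 12 of the 53 members with whole counts. The median leaf fold was 2.04 in the first and 1.96 in the second. In Cj roots 18 of the 57 were called higher and 10 lower, and 24 of the 53 higher and 6 lower. The median root log2 fold changes were 0.51 and 0.48. Over all genes tested 27.4% were called higher and 24.3% lower. Shares over all genes with and without whole counts were not taken, so these calls are a description. How the division of reads bears on the leaf difference was not tested, so the levels of single members with such counts are uncertain.

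**Figure D5:**
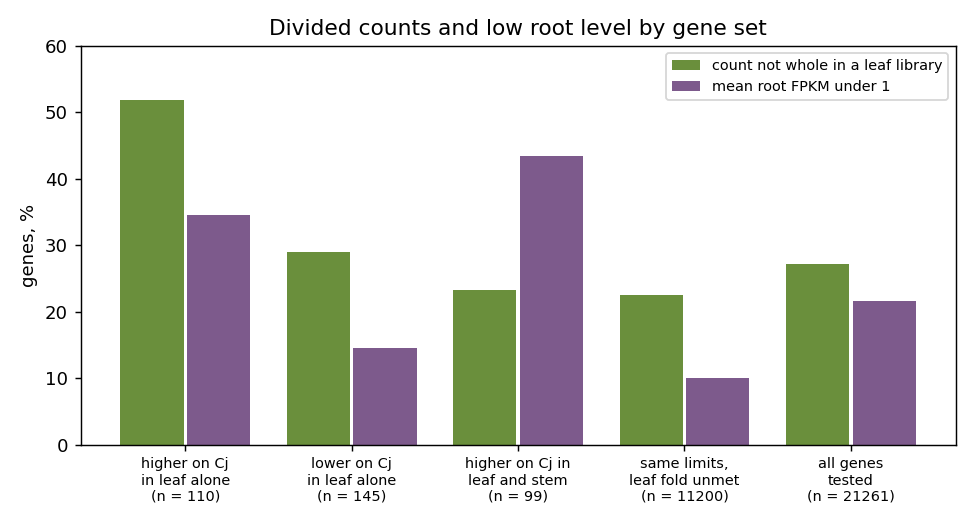
Share of genes (in %) with an estimated count that was not whole in at least 1 leaf library (green) and with mean root FPKM under 1 (purple), for the 110 members and 4 other sets. The members have the tallest green bar, 51.8% against 27.2% of all genes tested, and a purple bar of 34.5% that lies below the 43.4% of genes higher on Cj in both scion organs.

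By library the members moved as a block in leaf, which the choice fixes, and less so elsewhere. The median over members of the log2 level relative to the 4 libraries of an organ was 0.47 and 0.49 in Cj leaf and -0.46 and -0.49 in Pt leaf. In stem it was 0.09 and 0.04 on Cj and -0.01 and -0.12 on Pt. In roots it was 0.09 and 0.24 in Cj and -0.21 and -0.11 in Pt, so both Cj root libraries lay above both Pt root libraries. Over all genes tested this median lay between -0.01 and 0.01 in every root library. These levels are log2(FPKM + 0.1) after TMM scaling of each library.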

How the data were processed

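Per the labels' protocols, messenger RNA was captured by its poly(A) tail, fragmented and copied from random primers. The name of the aligner, counter, annotation or build is not given in the sources used here, and neither is strandedness, so a gene that overlaps another or has a near-identical copy is uncertain. The authors deposited 1 table per library with a gene length in bases (a unit other than expression, per the file headers). Expected counts, which are estimated counts per gene not scaled to depth, were deposited by the authors, per the file headers. The authors scaled the deposited FPKM by gene length and library size. Genes missing from a table were taken as 0.

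Expected counts were rounded and tested with edgeR 4.0.16 (quasi-likelihood test, limma 3.58.1, R 4.3.3) after filterByExpr, which kept 21261 genes, and TMM scaling. One mean per group was fitted to all 12 libraries. P-values were adjusted by Benjamini-Hochberg, and SE is the size of the log2 fold change over the root of F. Alternatives used DESeq2 1.42.0, RLE scaling, no filter, limma on log2 FPKM with a pseudocount of 1 or 0.1, fewer libraries and a replicate block. The fit was tested on simulated data. Genes were named by rank within the members: widest and narrowest leaf gap, highest leaf level, largest and smallest root difference (mean log2 CPM of at least 3 in roots), extreme ratio of leaf to stem, neighbouring IDs, and highest leaf level with mean root FPKM under 0.1. The members, lists and rules were chosen with earlier results of these data known. Depth limits precision through counting error, and PCR copies were not marked.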

Additional observations from a re-analysis of the deposited data

Results flagged for a closer look

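Cs7g29880 and orange1.1t01850 moved in opposite directions in roots and leaf. Both libraries of Cj roots were below both of Pt roots, with log2 fold changes of -3.23 and -1.90 (edgeR's quasi-likelihood test), while both libraries of Cj leaf were above both of Pt leaf. The leaf direction was fixed by the choice of genes, and the difference between the organs was not tested.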

How the results depend on the processing

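The number of genes meeting the limits was 110. It was 24 with a leaf fold of at least 2 and 48 with a stem ratio between 0.9 and 1.1, and 86 to 300 when 1 scion library was left out, where 300 is the limit of the rule and was reached without Cj leaf replicate 1, so more genes may have met it. With 1 leaf library left out the rule is looser by construction, since fewer values must stand apart. In roots the members called higher numbered 42, and 40 to 44 in 7 other fits and 36 to 40 without 1 root library. Those called lower numbered 16, and 15 to 17 and 13 to 15 in the same fits. In every fit with the root contrast 31 were called higher and 12 lower, where the root libraries alone tested 78 members. The background moved too. Of all genes tested in a fit, 51.7% were called in roots in the main fit, 41.4% with no filter and 67.1% with the root libraries alone. On log2(FPKM + 1) 5319 genes were higher and 5757 lower, against 5829 and 5165 in the main fit. No share over all genes was taken for calls kept in every fit. None is set beside the fits without 1 root library either, so the member counts from those fits are a description. The median root log2 fold change of members, 0.49, was 0.18 on log2(FPKM + 1), 0.36 on log2(FPKM + 0.1) and 0.63 with the root libraries alone. It was 0.24 to 0.50 without 1 root library, the lowest without Cj root replicate 2. The pseudocounts shrink low genes by construction. Leaf calls among members, 82, ranged from 47 without Pt leaf replicate 2 to 66 when 1 leaf library was left out. The 10 members with a higher leaf than stem effect became 26 with DESeq2, 16 with no filter, 5 on log2(FPKM + 1), 1 with the stem and leaf libraries, and 1 to 13 without 1 scion library, with 1 without Pt stem replicate 1 and 3 without either Pt leaf replicate. On log2(FPKM + 0.1) limma called 0. There 70 members were higher at an unadjusted p under 0.05, and no share over all genes was taken at that limit. The choice used this contrast, so nothing is read from that count. Why the counts for leaf minus stem moved between fits was not tested. For the named genes, 267 of 281 alternatives kept their side of the threshold with no turn of sign, 4 lost the call (all Cs2g31420), 4 gained one and 6 turned in sign, none of them called. Orange1.1t01787, at 0.02, was -0.054 on log2(FPKM + 1), -0.0572 on log2(FPKM + 0.1), -0.0037 with the root libraries alone and -0.0531 to 0.0833 without 1 root library. Orange1.1t00327, at -0.56, was -1.08 to 0.28 without 1 root library, the highest without Pt root replicate 2. The labels number replicates alike in all groups, and the deviations of same-numbered libraries had correlations of -0.0623 to 0.132, so the numbers are not known to pair libraries. With the replicate block 44 members were higher and 17 lower in Cj roots, against 42 and 16 without it.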

Other observations

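Members were spread over all ID series. Of the 110 genes, 29 (26.4%) had IDs that start with orange1.1t, against 18.8% of all IDs listed and 16.5% of the genes tested. IDs that start with Cs1g held 3 members (2.73%) against 9.28% of all IDs. The share of each other series among the members lay between 4.55% and 12.7%.

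Several transcripts were listed for 30 members (27.3%), against 35.2% of genes tested. The length that the authors list for such a gene changes with the mix of its transcripts. It differed between leaf on Cj and leaf on Pt, with groups apart and means at least 5% apart, in 1 of the 30, against 223 of 7487 genes tested with several transcripts (2.98%). That member was Cs2g09780, with 8 transcripts and lengths of 1385 and 1427 bases on Cj against 1297 and 1369 bases on Pt.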
